A study of Mus musculus with 11 samples.

Results

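The neuropeptide Y family of mouse islet cells was described over its 3 ligand genes and 3 of its receptor genes. The ligands were *Pyy* (peptide YY), *Ppy* (pancreatic polypeptide) and *Npy* (neuropeptide Y), and the receptors were *Npy1r*, *Npy2r* and *Npy5r*. The members were chosen by gene symbol, whatever their level, and made up 6 of the 55401 genes in the count table. The data were RNA-seq counts from 11 libraries of FACS-sorted islet cells, taken from 4 male mice of the C57BL6/J strain. By the labels, 4 libraries held NNAT-positive beta cells, 4 held NNAT-negative beta cells and 3 held non-beta cells. Libraries with the same number came from 1 mouse, and mouse 4 had no library of non-beta cells. Every mouse was chow fed, was 10 weeks old by its label (the study's text gives another age) and carried RIP-Cre, STOP-tdTomato and Nnat-EGFP together, so all 3 fractions carried the same alleles and no fraction was treated. Cre under the rat insulin promoter (RIP) switched on tdTomato, so that a beta cell was any cell in which that promoter had been active, and eGFP from an *Nnat* reporter transgene divided the beta cells into the 2 fractions. The non-beta fraction was whatever lacked tdTomato, a mixture of cell types, and only poly(A) RNA was sequenced. *Nnat* encodes neuronatin, a small membrane protein of endocrine and neural cells.

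The ligands of this family are short, amidated peptides cut from larger precursors in secretory granules. NPY is a transmitter of sympathetic and central neurons whose transcript is also known from immature beta cells, PYY is made by endocrine cells of the gut and islet, and pancreatic polypeptide is the hormone of the islet's gamma (PP) cells. Their receptors couple mainly to inhibitory G proteins that lower cyclic AMP, and activation of the Y1 receptor on beta cells is known to restrain insulin release.

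By the gencode annotation of GRCm38, *Pyy* and *Ppy* are neighbours on the minus strand of chromosome 11. *Pyy* spans chr11:102106676-102107832 and *Ppy* spans chr11:102099930-102101319, with a gap of 5356 bases between them and 0 other genes in that gap. *Npy* stands alone on the plus strand, at chr6:49822710-49829507. The receptor genes *Npy1r* (chr8:66697192-66706792, plus strand) and *Npy5r* (chr8:66679965-66688128, minus strand) start 9064 bases apart and point away from each other, with 0 genes between them. *Npy2r* is at chr3:82538383-82548084 on the minus strand. No other gene overlapped any of the 6 members on either strand, so counting with or without strand could not mix them with a neighbour. Words of 75 bases, the read length, were shared with another gene only by *Npy1r*, at 14 of its 3452 words.

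The stretches just before the start sites of the 3 ligand genes are shown because *Pyy* and *Ppy* were highest in non-beta cells while *Npy* was lowest there. Each is the 250 bases before the start in the RefSeq table for GRCm38.p6, written 5′ to 3′ on the gene's own strand, with the letters TATAA in capitals. For *Pyy* 2 starts are listed, and the start used is the one that matches its gencode start. The positions and base composition of *Pyy* hold for that start only. The windows are chr11:102107833-102108082 (minus strand) for *Pyy*, chr11:102101320-102101569 (minus strand) for *Ppy* and chr6:49822460-49822709 (plus strand) for *Npy*.
Pyy: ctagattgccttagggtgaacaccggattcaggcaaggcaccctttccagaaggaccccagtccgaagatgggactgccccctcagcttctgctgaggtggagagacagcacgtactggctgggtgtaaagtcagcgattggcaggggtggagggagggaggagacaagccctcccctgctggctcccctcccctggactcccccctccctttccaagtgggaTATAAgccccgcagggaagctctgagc
Ppy: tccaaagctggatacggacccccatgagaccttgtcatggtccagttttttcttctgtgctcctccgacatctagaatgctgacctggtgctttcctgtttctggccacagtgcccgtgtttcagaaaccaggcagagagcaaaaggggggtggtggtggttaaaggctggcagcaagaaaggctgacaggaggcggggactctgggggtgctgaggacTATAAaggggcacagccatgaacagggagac
Npy: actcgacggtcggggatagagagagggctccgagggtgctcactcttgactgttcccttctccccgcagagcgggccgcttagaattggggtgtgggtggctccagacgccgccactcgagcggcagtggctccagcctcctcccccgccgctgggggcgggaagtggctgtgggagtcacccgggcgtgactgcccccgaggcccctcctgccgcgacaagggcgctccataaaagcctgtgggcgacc

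Counted back from the start site, TATAA lay at positions −27 to −23 in *Pyy* and −31 to −27 in *Ppy*, and *Npy* held no match in its window. TATAA on the gene's strand between 40 and 20 bases before the start was present in 3.38% of the 32851 promoters of the table, and on either strand anywhere in the window in 22.8%. The letters CANNTG, searched on both strands, matched once, as CAAGTG at positions −36 to −31 of *Pyy*, and 66.2% of all promoters held such a match. The letters TAAT, searched on both strands, were in none of the 3 windows, against 54.9% of all promoters. The GC content was 61.2% with 5 CG pairs in *Pyy*, 55.2% with 4 in *Ppy* and 69.2% with 21 in *Npy*, where the median promoter had 52.4% and 6. By its base composition the *Npy* window thus stood apart from those of the other two ligands, and a match of letters is a description and not a binding site.

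Total counts per library were between 30420352 and 43238376, and levels are given as CPM, which are read counts scaled to a common library size after TMM normalisation. The limit of detection, set at 3 counts, was 0.0649 to 0.102 CPM depending on the library. For *Nnat* itself, whose reporter set the sort, libraries labelled NNAT-positive had 50.5, 46.4, 46.0 and 101 CPM in mice 1 to 4. Their partners labelled NNAT-negative had 74.8, 80.8, 66.5 and 153 CPM, higher in 4 of 4 mice, with an adjusted *p* of 0.444 in edgeR's quasi-likelihood test. The study's own tabulation of these libraries names the beta cell fractions the other way round. The labels are kept here, and every direction between the beta cell fractions would turn under the other naming. The sums of 8 beta cell markers were 180003 to 313947 CPM in the libraries labelled NNAT-positive, 178558 to 424117 CPM in those labelled NNAT-negative and 10413 to 25699 CPM in the non-beta libraries, so the defining transcripts of the labelled cell type were present in both beta cell fractions.

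*Pyy* and *Ppy* were transcripts of the non-beta fraction that were also present, at lower level, in every beta cell library, and more so in the libraries labelled NNAT-positive. Libraries labelled NNAT-positive held 211, 214, 243 and 183 CPM of *Pyy* in mice 1 to 4, and libraries labelled NNAT-negative held 61.1, 108, 91.2 and 81.3 CPM. Non-beta libraries of mice 1 to 3 held 1298, 2262 and 2248 CPM. None of the 3 fractions overlapped for *Pyy*, and mouse 1 was the lowest in both the non-beta libraries and the libraries labelled NNAT-negative. For *Ppy*, libraries labelled NNAT-positive held 108, 125, 178 and 116 CPM, and libraries labelled NNAT-negative held 27.9, 50.9, 50.4 and 56.6 CPM. Its level in the non-beta libraries of mice 1 to 3 was 559, 1177 and 1442 CPM. The 3 fractions of *Ppy* did not overlap either, in the same order as those of *Pyy*. How many of all tested genes have fractions apart in this way was not counted, so nothing is read from that separation.

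**Figure D1:**
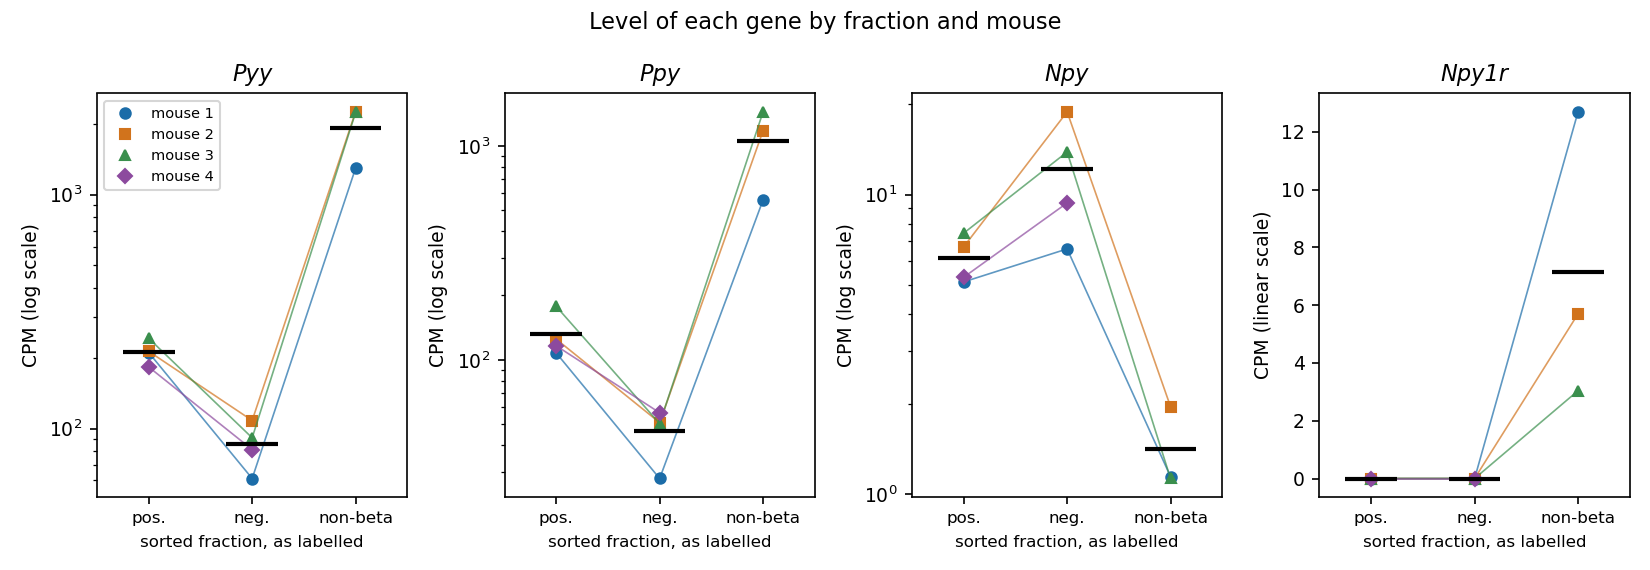
Level of *Pyy*, *Ppy*, *Npy* and *Npy1r* in CPM (log axes, except a linear axis for *Npy1r*) in the fractions labelled NNAT-positive (pos.) and NNAT-negative (neg.) and in non-beta cells. Points are libraries, lines join the libraries of 1 mouse, and black bars are group means. *Pyy* and *Ppy* were highest in non-beta cells, *Npy* was lowest there, and *Npy1r* was at 0 in all 8 beta cell libraries.

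Between the beta cell fractions, *Pyy* averaged 213 ± 24.5 CPM (SD, *n*=4) on the side labelled NNAT-positive against 85.5 ± 19.7 CPM (SD, *n*=4) on that labelled NNAT-negative. It was 2.54-fold higher, by 1.35 on the log2 scale (SE 0.14, adjusted *p*=0.00751, edgeR's quasi-likelihood test blocked by mouse). *Ppy* averaged 132 ± 31.5 CPM (SD, *n*=4) against 46.5 ± 12.7 CPM (SD, *n*=4) and was 2.89-fold higher, by 1.53 on the log2 scale (SE 0.17, adjusted *p*=0.00764, edgeR). Both were higher in 4 of 4 mice, by 1.79, 0.98, 1.41 and 1.17 on the log2 scale for *Pyy* in mice 1 to 4 and by 1.95, 1.30, 1.82 and 1.04 for *Ppy*. A call required an adjusted *p* under 0.01 and over 2-fold change, which 8 of 17424 tested genes met (0.0459%), all of them higher on the side labelled NNAT-positive, with *Pyy* and *Ppy* among them. In bulk samples, fewer cells of a type and less RNA per cell cannot be told apart.

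In edgeR, both calls rested on all 4 mice and on the block. Without mice 1, 2, 3 and 4 in turn, the adjusted *p* in edgeR was 0.0137, 0.0369, 0.133 and 0.0345 for *Pyy* and 0.0206, 0.0867, 0.133 and 0.0148 for *Ppy*, while the direction held each time. Without the block it was 0.086 and 0.22. With all 4 mice and the block, DESeq2 gave an adjusted *p* of 2.02e-20 for *Pyy* and 1.44e-19 for *Ppy*. In edgeR on the beta cell libraries alone, the adjusted *p* was 0.00145 and 0.00223.

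**Figure D2:**
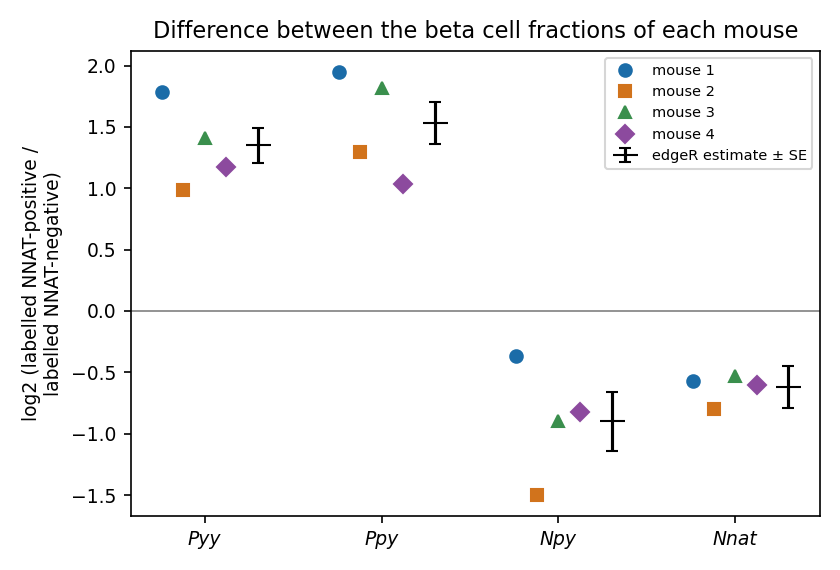
Log2 ratio of the library labelled NNAT-positive to the library labelled NNAT-negative of the same mouse, for *Pyy*, *Ppy*, *Npy* and *Nnat*. Coloured points are the 4 mice, and the black mark is edgeR's estimate with its SE, which was 1.35 ± 0.14 for *Pyy*, 1.53 ± 0.17 for *Ppy*, −0.90 ± 0.24 for *Npy* and −0.62 ± 0.17 for *Nnat*.

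Against non-beta cells, the level of *Pyy* (1936 ± 552 CPM there, SD, *n*=3) was 8.55-fold lower in libraries labelled NNAT-positive, at −3.10 on the log2 scale (SE 0.16, adjusted *p*=2.46e-07, edgeR). It was 21.8-fold lower in libraries labelled NNAT-negative, at −4.44 (SE 0.17, adjusted *p*=4.48e-08, edgeR). *Ppy* (1059 ± 453 CPM there, SD, *n*=3) was 7.75-fold lower at −2.95 (SE 0.18, adjusted *p*=8.93e-07, edgeR) and 22.4-fold lower at −4.49 (SE 0.20, adjusted *p*=1.07e-07, edgeR). These comparisons share the 3 non-beta libraries. They called 21.6% and 23.3% of all tested genes in either direction, and 15.5% and 17.1% as lower in beta cells, so a call against non-beta cells was common.

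Expressed as a share of the non-beta level of the same mouse, *Pyy* in libraries labelled NNAT-positive stood at 16.3%, 9.45% and 10.8% in mice 1 to 3, and *Ppy* at 19.3%, 10.6% and 12.3%. In libraries labelled NNAT-negative, *Pyy* stood at 4.71%, 4.78% and 4.06%, and *Ppy* at 5.00%, 4.33% and 3.49%. The shares of both genes were close to each other within a library and lower in the library labelled NNAT-negative of every mouse. *Sst*, the somatostatin gene of delta cells, stood at 28.7%, 15.5% and 19.7% in libraries labelled NNAT-positive and at 8.04%, 7.96% and 6.38% in libraries labelled NNAT-negative. *Gcg*, the glucagon gene of alpha cells, stood at 2.94%, 1.32% and 2.14%, then at 1.18%, 0.624% and 1.33%. *Pyy* and *Ppy* thus lay between the delta cell and the alpha cell hormone in each of these libraries.

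**Figure D3:**
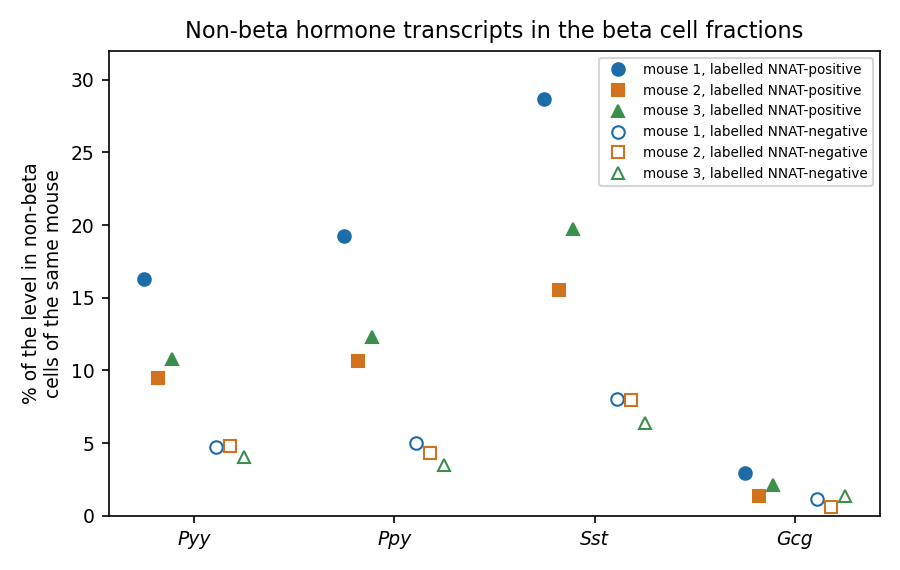
Level of *Pyy*, *Ppy*, *Sst* and *Gcg* in each beta cell library as a percentage of the CPM in the non-beta library of the same mouse (mice 1 to 3). Filled symbols are libraries labelled NNAT-positive and open symbols those labelled NNAT-negative. *Sst* reached 28.7%, *Ppy* 19.3%, *Pyy* 16.3% and *Gcg* 2.94%, all in mouse 1.

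Markers of the other islet hormone cells moved with *Pyy* and *Ppy* between the beta cell fractions, and their part in the result was not tested. All 4 delta cell markers (*Sst*, *Hhex*, *Rbp4* and *Ghsr*) were, in 4 of 4 mice, higher on the side labelled NNAT-positive, with a median log2 fold change of 1.53 (1.37 to 1.84). Their summed level was 1403 to 2489.8 CPM there, 543 to 1046 CPM in libraries labelled NNAT-negative and 6898 to 13508 CPM in non-beta cells. Only *Rbp4* of these 4 passed the call (log2 fold change 1.41, adjusted *p*=0.000673, edgeR), with *Sst* at 1.37 (adjusted *p*=0.0105, edgeR). DESeq2 called both *Sst* and *Rbp4*, and all 4 had an unadjusted *p* below 0.05 in edgeR. Of all 17424 genes tested, 839 were higher and 130 lower at that unadjusted *p* in edgeR, with a median log2 fold change of 0.05. DESeq2 called 80 higher and 6 lower. How many of all tested genes were higher in 4 of 4 mice was not counted, so nothing is read from such counts in the marker lists. Of 6 alpha cell markers, 3 were higher in 4 of 4 mice, *Gcg* among them. The median of the alpha list was 1.10 (0.08 to 1.30), its sum was 2818 to 4077 CPM, 1587 to 2486 CPM and 123279 to 171502 CPM in the 3 fractions in the same order, and 0 passed the call in edgeR, with 4 at an unadjusted *p* below 0.05 and 2 called by DESeq2. The 8 beta cell markers had a median of −0.06 (−0.21 to 0.05), and in 4 of 4 mice 0 were higher and 2 lower on the side labelled NNAT-positive. *Ppy* is itself the only gene of the gamma cell list, so that list adds nothing to it. The ghrelin gene *Ghrl*, the only gene of the epsilon cell list, had at most 0.137 CPM in a beta cell library and 0.822 to 10.9 CPM in non-beta cells.

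The markers of non-endocrine cells were at low level in the beta cell libraries, except for the acinar and ductal lists. The sum of the 5 acinar markers was 6.97 to 1700.0 CPM in libraries labelled NNAT-positive, 39.1 to 354 CPM in libraries labelled NNAT-negative and 12692 to 48228 CPM in non-beta cells, with 0 of 5 higher in 4 mice. The 4 ductal markers summed to 214 to 260.1 CPM, 221 to 275 CPM and 282 to 457 CPM. The highest acinar sum in a beta cell library was that of mouse 2 labelled NNAT-positive. The 4 endothelial markers summed to 0.262 to 5.06 CPM, 0.0913 to 1.02 CPM and 1532 to 1743 CPM. The 4 macrophage and leukocyte markers summed to 0.792 to 4.75 CPM, 0 to 1.30 CPM and 184 to 442 CPM. The 4 stellate markers summed to 0.336 to 2.08 CPM, 0 to 1.64 CPM and 1930.4 to 4354 CPM. The 4 Schwann cell markers summed to 9.72 to 16.4 CPM, 6.49 to 12.4 CPM and 28.6 to 36.7 CPM. The upper end of each of these last 4 ranges was higher in libraries labelled NNAT-positive than in libraries labelled NNAT-negative, and of their members *Pdgfra* was at 0 in all 8 beta cell libraries and *Cdh5* and *Cdh19* were at 0 in the 4 labelled NNAT-negative. Their part in the levels of *Pyy* and *Ppy* was not tested.

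Compared per kilobase (kb) of merged exon, which allows genes to be set against each other, *Pyy* had the highest mean level of the family in all 3 fractions, followed by *Ppy* and then *Npy*. In libraries labelled NNAT-positive the CPM per kb was 290.4 to 385 for *Pyy*, 216 to 356 for *Ppy* and 9.03 to 13.1 for *Npy*. In those labelled NNAT-negative it was 96.9 to 172 for *Pyy*, 55.8 to 113 for *Ppy* and 11.6 to 33.4 for *Npy*. In non-beta cells it was 2058 to 3586 for *Pyy*, 1118 to 2885 for *Ppy*, 2.00 to 3.46 for *Npy* and 0.88 to 3.67 for *Npy1r*. The ranges of *Pyy* and *Ppy* overlapped in every fraction, although *Pyy* was the higher one within each of the 11 libraries, and those of *Npy* and *Npy1r* overlapped in non-beta cells. *Npy* did not overlap *Ppy* in any fraction.

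The proportion of the neighbouring hormone genes varied between mice within each fraction. In mouse 1, the ratio of *Ppy* to *Pyy* per kb was 0.644 in the library labelled NNAT-positive, 0.576 in that labelled NNAT-negative and 0.543 in non-beta cells. In mouse 2 the ratios were 0.738, 0.594 and 0.657, and in mouse 3 they were 0.923, 0.697 and 0.810. In mouse 4 they were 0.802 and 0.880. Between the beta cell fractions, 3 of 4 mice had the higher ratio on the side labelled NNAT-positive, by a mean of 0.19 on the log2 scale (SD 0.24, *n*=4). The exact 2-sided sign-flip permutation test over mice gave *p*=0.25, and since 4 mice give 16 sign patterns, the smallest *p* is 2 of 16. Against non-beta cells it was higher by 0.20 (SD 0.04, *n*=3) in 3 of 3 mice for the libraries labelled NNAT-positive, with an exact *p* of 0.25 that is the smallest 3 mice allow. For those labelled NNAT-negative the difference was −0.09 (SD 0.16, *n*=3), higher in 1 of 3 mice, with an exact *p* of 0.5. Adjusted over these 3 tests the exact *p* was 0.375, 0.375 and 0.5, so no difference in proportion passed the test, which with these numbers of mice could not reach 0.05.

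**Figure D4:**
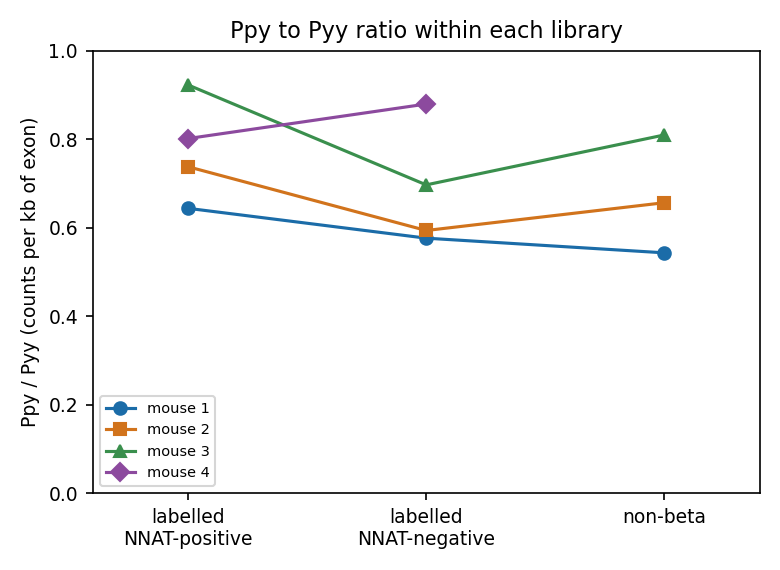
Ratio of *Ppy* to *Pyy* in counts per kb of exon in each library. Points are libraries, and lines join the libraries of 1 mouse. The ratios ran from 0.543 (mouse 1, non-beta cells) to 0.923 (mouse 3, labelled NNAT-positive).

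*Npy* had the opposite distribution to the other ligands, with its lowest level in non-beta cells. Libraries labelled NNAT-positive held 5.11, 6.69, 7.43 and 5.30 CPM of *Npy* in mice 1 to 4, and libraries labelled NNAT-negative held 6.59, 18.9, 13.9 and 9.38 CPM. In non-beta cells of mice 1 to 3 it had 1.15, 1.96 and 1.13 CPM, from 53, 74 and 42 counts. Neither beta cell fraction overlapped the non-beta cells, while the beta cell fractions overlapped each other, since mouse 1 labelled NNAT-negative lay below mice 2 and 3 labelled NNAT-positive. The share of all tested genes apart from non-beta cells in this way was again not counted. Against non-beta cells, *Npy* was 4.67-fold higher in libraries labelled NNAT-positive, by 2.22 on the log2 scale (SE 0.30, adjusted *p*=0.000149, edgeR). It was 8.74-fold higher in libraries labelled NNAT-negative, at 3.13 (SE 0.30, adjusted *p*=1.59e-05, edgeR). Genes called higher than in non-beta cells made up 6.13% and 6.18% of those tested.

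Between the beta cell fractions, *Npy* did not pass the test. In 4 of 4 mice it was lower on the side labelled NNAT-positive, with log2 ratios of −0.37, −1.496, −0.90 and −0.82, as *Nnat* was. The fitted log2 fold change was −0.90 (SE 0.24, unadjusted *p*=0.00409, adjusted *p*=0.407, edgeR), and over the alternatives the adjusted *p* ran from 0.015 with DESeq2 to 1 without mouse 2. Genes called lower in the libraries labelled NNAT-positive were 0 of all genes tested, 130 had an unadjusted *p* below 0.05 in that direction in edgeR, and DESeq2 called 6. Within a mouse, *Npy* in the library labelled NNAT-positive stood at 446%, 341% and 658% of the non-beta level in mice 1 to 3, and in the library labelled NNAT-negative at 575%, 963% and 1228%, so the mice differed widely.

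Of the neuronal marker genes, which bear on *Npy* as a transmitter of nerve cells, the summed level of all 5 was 3.45 to 6.89 CPM in libraries labelled NNAT-positive and 0.487 to 2.42 CPM in libraries labelled NNAT-negative. It was 25.04 to 29.1 CPM in non-beta cells, where *Npy* was lowest. *Dbh*, the noradrenaline-forming enzyme, was at 0 in all 8 beta cell libraries, and *Stmn2* was at 0 in the 4 labelled NNAT-negative, where *Npy* was highest. Their part in the level of *Npy* was not tested.

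Of the receptor genes, only *Npy1r* had counts, and only in non-beta cells. *Npy1r*, the Y1 receptor gene, had 587, 215 and 113 counts in the non-beta libraries of mice 1 to 3, that is 12.7, 5.70 and 3.04 CPM, and 0 counts in each of the 8 beta cell libraries. Set against a floor of 3 counts per library, *Npy1r* was at least 151-fold, 79.2-fold and 38.7-fold higher in non-beta cells than in the library labelled NNAT-positive of mice 1, 2 and 3. Against the library labelled NNAT-negative it was at least 124-fold, 62.4-fold and 36.5-fold higher. The adjusted *p* of *Npy1r* was 0.00114 and 0.00118 in edgeR and 0.0169 and 0.0195 in DESeq2, and the gene passed the filter on low counts only through the non-beta libraries, so a difference was bound to appear. Its level in mouse 1 was above those of mice 2 and 3, and the spread of 7.14 ± 4.99 CPM (SD, *n*=3) is wide.

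Other cell types in the non-beta fraction varied between the same mice, and their part in the level of *Npy1r* was not tested. In mice 1, 2 and 3, the stellate marker sum was 4354, 1930.4 and 2699 CPM and the macrophage and leukocyte sum was 442, 184 and 250.1 CPM. The endothelial sum was 1532, 1617 and 1743 CPM and the delta cell sum was 6898, 13508 and 12842 CPM. The acinar sum was 12692, 48228 and 37790 CPM and the alpha cell sum was 123279, 171502 and 149690 CPM. Mouse 1, with the most *Npy1r*, thus had the highest stellate and macrophage sums of the 3 mice. It also had the lowest endothelial, delta cell, acinar and alpha cell sums. The stellate and macrophage sums of mouse 2 were below those of mouse 3, whereas its *Npy1r* level was above.

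*Npy2r* and *Npy5r*, the genes of the Y2 and Y5 receptors, had 0 counts in all 11 libraries. With 3 counts as the limit that a count of 0 allows, their level was at most 0.102 CPM in any library, which is 0.0303 CPM per kb for *Npy2r* and 0.0401 CPM per kb for *Npy5r*. Neither transcript was detectable at this depth. Of the Y receptor genes outside the 6 members, *Npy6r* also had 0 counts in every library, and *Npy4r*, whose product is the receptor for pancreatic polypeptide, had 4 counts in the non-beta library of mouse 1 and 0 elsewhere. Of the 6 members, 4 (*Pyy*, *Ppy*, *Npy* and *Npy1r*) passed the filter on low counts.

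The enzymes that cut and finish peptide precursors were present in all 3 fractions. Of 8 such genes, 0 were called between the beta cell fractions by edgeR or DESeq2 and 1 (*Furin*) had an unadjusted *p* below 0.05 in edgeR, with a median log2 fold change of 0.01 beside 0.05 for all genes tested. Against non-beta cells, 1 was called higher and 0 lower in either beta cell fraction, where 6.13% and 6.18% of all tested genes were called higher and 15.5% and 17.1% lower. The list medians were −0.13 and −0.25 beside −0.06 and −0.13 for all genes. The gene called was *Pcsk1*, prohormone convertase 1/3, with 1321 ± 117 CPM (SD, *n*=4) and 1275 ± 82.3 CPM (SD, *n*=4) in the beta cell fractions, where the non-beta libraries had 93.8 ± 27.3 CPM (SD, *n*=3). Its log2 fold changes were 3.87 (SE 0.17, adjusted *p*=1.22e-07, edgeR) and 3.82 (SE 0.17, adjusted *p*=1.07e-07, edgeR). *Pcsk2*, the other convertase of the granule, had 5265, 5144 and 7075 CPM in the 3 fractions and was not called. *Pam*, which amidates the carboxyl end that Y receptors recognise, had 865, 776 and 1427 CPM, a difference under 2-fold.

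Of 6 genes for peptidases that can trim these peptides, 5 were tested. Between the beta cell fractions 0 were called by edgeR or DESeq2, and 1 (*Mme*) had an unadjusted *p* below 0.05 in edgeR. Only *Dpp4* reached the filter's level in the beta cell libraries, while *Fap*, *Mme*, *Xpnpep2* and *Mep1a* passed through the non-beta libraries and so were bound to be lower in beta cells. Of these 4, *Fap*, *Mme* and *Xpnpep2* met the call in both beta cell fractions, where 15.5% and 17.1% of all tested genes were called lower, and nothing is read from that count. In non-beta cells these 3 had 8.96, 10.2 and 4.64 CPM, and in either beta cell fraction their means were at most 0.288 CPM. *Dpp4*, which removes the amino-terminal dipeptide of PYY and NPY, went the other way, with 124 ± 13.3 CPM (SD, *n*=4) and 124 ± 15.4 CPM (SD, *n*=4) in the beta cell fractions beside 69.8 ± 6.78 CPM (SD, *n*=3) in the non-beta fraction. Its log2 fold changes of 0.87 and 0.88 (SE 0.12 each, adjusted *p*=0.000171 and 0.000166, edgeR) stayed under 2-fold, so it was not called.

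Of 20 genes of Y receptor signalling (inhibitory G protein subunits, adenylyl cyclases, G protein-gated potassium channels and protein kinase A), 19 were tested. Between the beta cell fractions 0 were called by edgeR or DESeq2, 2 (*Gnai1* and *Adcy8*) had an unadjusted *p* below 0.05 in edgeR, and the list had a median of 0.08 beside 0.05 for all genes. Against non-beta cells, 2 were called higher in either beta cell fraction. These were *Gnaz*, an inhibitory G protein subunit, at 1.20 (SE 0.11) and 1.37 (SE 0.11) on the log2 scale, and the cyclase gene *Adcy9* at 1.52 (SE 0.10) and 1.44 (SE 0.09). Of all tested genes, 6.13% and 6.18% were called higher. Lower than in non-beta cells were 7 genes in libraries labelled NNAT-positive and 8 in libraries labelled NNAT-negative, beside 15.5% and 17.1% of all tested genes, with list medians of −0.71 and −0.94. These counts include *Adcy4*, and the second also *Adcy8*, which passed the filter only through the non-beta libraries and so had to be lower. Both counts include *Gnai1*, an inhibitory subunit with 27.3, 19.2 and 104 CPM in the 3 fractions, *Kcnj3*, a channel subunit with 0.649, 0.717 and 19.6 CPM, and the cyclase gene *Adcy5* with 0.579, 0.763 and 25.7 CPM. Medians of all tested genes stood at −0.06 and −0.13 in these comparisons.

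The genes most like each ligand were found by the root mean square difference of log2 CPM, each gene centred on its own mean. Over the 11 libraries, the nearest to *Pyy* were *Cd24a* (0.17), *Rbp4* (0.20) and *Ppy* (0.24), where the median over all tested genes was 1.87. The nearest to *Ppy* were *Pyy* (0.24), *Ehf* (0.31) and *Rbp4* (0.32), so each hormone was among the 3 nearest genes of the other. For *Npy* they were *6330403K07Rik* (0.41), *Alk* (0.42) and *Gm17435* (0.42) with a median of 1.39. Over these 11 libraries this was a looser likeness than that of the other ligands, and *Npy* had only 42 to 74 counts in the non-beta libraries. For *Npy1r* the 3 nearest, *Nkain4* (0.11), *Adgre4* (0.16) and *Ptgir* (0.16), also had 0 counts in every beta cell library, so that shared zeros made up most of the likeness. Over the 8 beta cell libraries alone, *Sst* (0.13) came nearest to *Pyy*, *Ehf* (0.21) to *Ppy* and *Alk* (0.15) to *Npy*, with medians over all genes of 0.77, 0.89 and 0.74. The likeness of *Npy* to its nearest gene was thus not the loosest there. These values describe 11 libraries from 4 mice and carry no test.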

How the data were processed

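Poly(A) RNA of FACS-sorted islet cells was sequenced with a directional kit. Reads were aligned by the authors to mm10 with STAR 2.7.1a. They obtained counts on gencode release 25 and deposited whole-number counts per gene, not normalised. The strand setting of the counting is not given in the sources used here. DESeq2 1.32.0 stands in the submitters' processing notes. The deposited table had 55401 genes, of which 202 rows had no symbol, and 0 columns of per-sample values went unused. No 2 of the libraries (55 pairs) were identical.

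Groups followed the labels. Counts were fitted in R 4.3.3 with edgeR 4.0.16 (TMM, filterByExpr by fraction, 17424 genes, quasi-likelihood test) on all 11 libraries, blocked by mouse. Benjamini-Hochberg adjustment ran across the tested genes, and a call needed an adjusted *p* under 0.01 with over 2-fold change. The SE of a log2 fold change was its size over the root of *F*. CPM was scaled by TMM, with a prior count of 2 on the log2 scale. Each replicate was an individual mouse by the paper's methods, and the labels give the numbers. Deviations from group means correlated by 0.175 on average between libraries of 1 mouse (10 pairs, 0.032 to 0.657). Between mice the mean was −0.058 (30 pairs, −0.322 to 0.093), so the ranges overlapped. The value of 0.657 was that of the beta cell libraries of mouse 4. Coordinates came from gencode release 21 (GRCm38), which 55141 gene identifiers matched, and promoters from RefSeq (GRCm38.p6). The levels per kb used exon lengths of release 21.

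The members and lists (processing enzymes, peptidases, signalling, other Y receptors and cell type markers) were chosen with earlier results of these data known. By rule, the genes named were the 6 members, *Nnat*, up to 4 called genes of each list by smallest *p*, and the 3 genes nearest in pattern to each member. *Gnaz*, *Adcy4*, *Adcy8*, *Mep1a*, *Furin*, *Pcsk2*, *Pam*, *Dpp4* and *Npy4r* were named after their values were seen. *Npy6r* and the markers *Gcg*, *Hhex*, *Ghsr*, *Ghrl*, *Dbh*, *Stmn2*, *Pdgfra*, *Cdh5* and *Cdh19* were also named outside this rule. Alternatives were DESeq2 1.42.0, other normalisation, no filter, no block, other thresholds, beta cell libraries only, no insulin genes, and each mouse left out. Some marker genes within the lists are not reported here by name. Floors of 3 counts cover counting error only.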

Additional observations from a re-analysis of the deposited data

Results flagged for a closer look

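In the beta cell fractions, no library stood apart for *Npy*, *Pyy* or *Ppy*, and the 3 non-beta libraries are too few for this comparison. *Nnat*, the gene behind the sort, did. In the libraries labelled NNAT-positive, mouse 4 (101 CPM) stood above the other 3, with a gap to the nearest of 0.919 of the whole range. In those labelled NNAT-negative, mouse 4 (153 CPM) again stood above the rest, with a gap of 0.835. Both are over Dixon's critical value for 4 samples, which chance passes in about 1 group of 20. The beta cell libraries of mouse 4 also differed beyond *Nnat*. Their beta cell marker sums were 180003 CPM (labelled NNAT-positive) and 178558 CPM (labelled NNAT-negative). In mice 1 to 3 these sums were 277860 to 313947 CPM and 291338 to 424117 CPM. The TMM factors of mouse 4 were 1.12 and 1.13, against 0.870 to 0.964 in the other beta cell libraries. In mouse 4, *Npy* lay within the range of mice 1 to 3 in both fractions, *Pyy* was the lowest of 4 on the side labelled NNAT-positive (183 CPM) and *Ppy* the highest of 4 on that labelled NNAT-negative (56.6 CPM).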

How the results depend on the processing

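No direction of *Npy*, *Pyy* or *Ppy* turned under any alternative, and against non-beta cells these 3 genes kept their calls in all 10 settings. Between the beta cell fractions, the 8 genes called became 86 with DESeq2 (80 higher, 6 lower), 26 with no filter on low counts, 16 at an adjusted *p* below 0.05 and 1 without the replicate block. With each mouse left out in turn it was 0 to 5 genes, and 0 without mouse 3 in edgeR, where 817 genes higher and 116 lower had an unadjusted *p* below 0.05. Without the block, the log2 fold changes were 1.32 for *Pyy* and 1.503 for *Ppy*, no longer called, and the block changed no other call of a member. With each mouse left out, *Pyy* ran from 1.19 to 1.46 and *Ppy* from 1.38 to 1.66, with calls lost each time. These fits have fewer libraries, and the cause was not tested otherwise. *Npy* between the beta cell fractions ran from −1.06 to −0.72 over all alternatives and was not called in any.

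Depth limits the receptors, where 0 counts allow up to 0.102 CPM. Non-beta cells came from 3 mice only, and the fractions of beta cells carry names that differ between the labels and the study's tabulation.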
